A study of Mus musculus with 6 samples.

Results

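The nuclear genes of the oxidative phosphorylation system were examined in macrophages grown from the bone marrow of mice lacking vimentin and of their wild-type littermates. Earlier results of these data were known when the genes were chosen. The choice went by name, taking the genes whose single symbol in the array annotation begins with Ndufa, Ndufb, Ndufc, Ndufs, Ndufv, Uqcr, Cox4, Cox5, Cox6, Cox7, Cox8 or Atp5, or is Sdha, Sdhb, Sdhc, Sdhd or Cyc1. This gave 91 of the 18193 genes on the table, each represented by the probe set whose mean over the 6 arrays was highest. Of these, 87 had a mean at or above 6.93 on the log2 scale, the 40th percentile of the table without controls, and were tested among 13445 genes. The tested genes comprised 43 of 44 for complex I, 4 of 4 for complex II, 9 of 9 for complex III, 14 of 17 for complex IV and 17 of 17 for complex V. The prefix Ndufa also takes in 8 Ndufaf genes, which encode assembly factors of complex I and not subunits, and these are given separately where that matters.

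The study asked about the role of vimentin in mice lacking the LDL receptor after marrow transplantation, but the arrays hold RNA of cultured macrophages, and the labels name no transplantation for them. Both genotypes were littermates on the C57BL/6 background, 17 weeks old and fed chow. Femoral marrow of both was grown at normal oxygen in high-glucose medium with supernatant of CMG14-12 cells, a line that secretes mouse M-CSF, the growth factor that drives marrow precursors into macrophages. Each genotype has 3 arrays, called biological replicates in the labels, and this number limits the precision of every comparison. The vimentin allele itself is not described beyond its deficiency. In bulk RNA, fewer cells of a type and less RNA per cell cannot be told apart.

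Oxidative phosphorylation takes place in the inner mitochondrial membrane. Complex I and complex II pass electrons from NADH and succinate to ubiquinone, complex III hands them to cytochrome c, complex IV reduces oxygen, and complex V makes ATP from the proton gradient that complexes I, III and IV build. Macrophages shift between this pathway and glycolysis with their activation state, and apart from complex II each complex joins nuclear-encoded subunits with others encoded in mitochondrial DNA.

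The genotype labels held on the vimentin transcript. The brightest probe set of Vim read 8.20, 6.96 and 7.13 on vimentin-deficient replicates 1, 2 and 3 and 13.41, 13.24 and 13.31 on wild-type replicates 1, 2 and 3, a log2 difference of -5.89 (limma, Benjamini-Hochberg adjusted p = 0.00414). Array medians lay between 7.23 and 7.25. Vimentin-deficient replicate 3 stood apart, correlating with the other arrays at 0.975 to 0.979 over all probe sets, where correlations among the remaining 5 ran from 0.992 to 0.998. Over the oxidative phosphorylation genes alone these ranges were 0.986 to 0.992 and 0.993 to 0.998. On that array the 15 tested genes of a list of 16 proliferation genes lay a median of 2.86 log2 units below the mean of vimentin-deficient replicates 1 and 2. All 8 macrophage markers were above the filter, and their mean ran from 11.97 to 12.36 on vimentin-deficient and from 11.91 to 12.07 on wild-type arrays. Of the 87 differences tested below, 36 turned sign without that array and a further 33 moved by over 1.5 times, so both values are given for the genes and lists so affected whose difference is printed.

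With all 6 arrays, no oxidative phosphorylation gene passed the test between the genotypes. The number past the threshold was 0 of 87, where 0.0223% of all tested genes passed (3 of 13445, limma with Benjamini-Hochberg at 0.05). At an unadjusted p under 0.05 there was 1 of the 87, or 1.15%, against 7.97% of all genes, and with array quality weights the limma count after adjustment was again 0, where 0.692% of all genes passed. The direction was lower for 61 of the 87 and higher for 26. Their median log2 difference was -0.036, beside -0.023 over all tested genes, and single values ran from -0.24 for Cox7a1 to 0.31 for Ndufaf4. The 95% interval from limma lay within 1.5-fold in either direction for 85 of the 87, or 97.7%, against 90.0% of all tested genes. The exceptions were Ndufs8, from -0.40 to 0.81, and Ndufv3, from -0.62 to 0.25, and the intervals of all 87 lay within 2-fold.

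Few of the genes separated the genotypes array by array. All vimentin-deficient arrays lay above all wild-type arrays for 1 of the 87, Ndufa2, while 5.32% of all tested genes did so. They lay below all wild-type arrays for 4, Cox8a, Ndufa13, Ndufa3 and Uqcr11, while 10.1% of all tested genes did so. The plot of genotype differences shows each gene by complex.

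**Figure D1:**
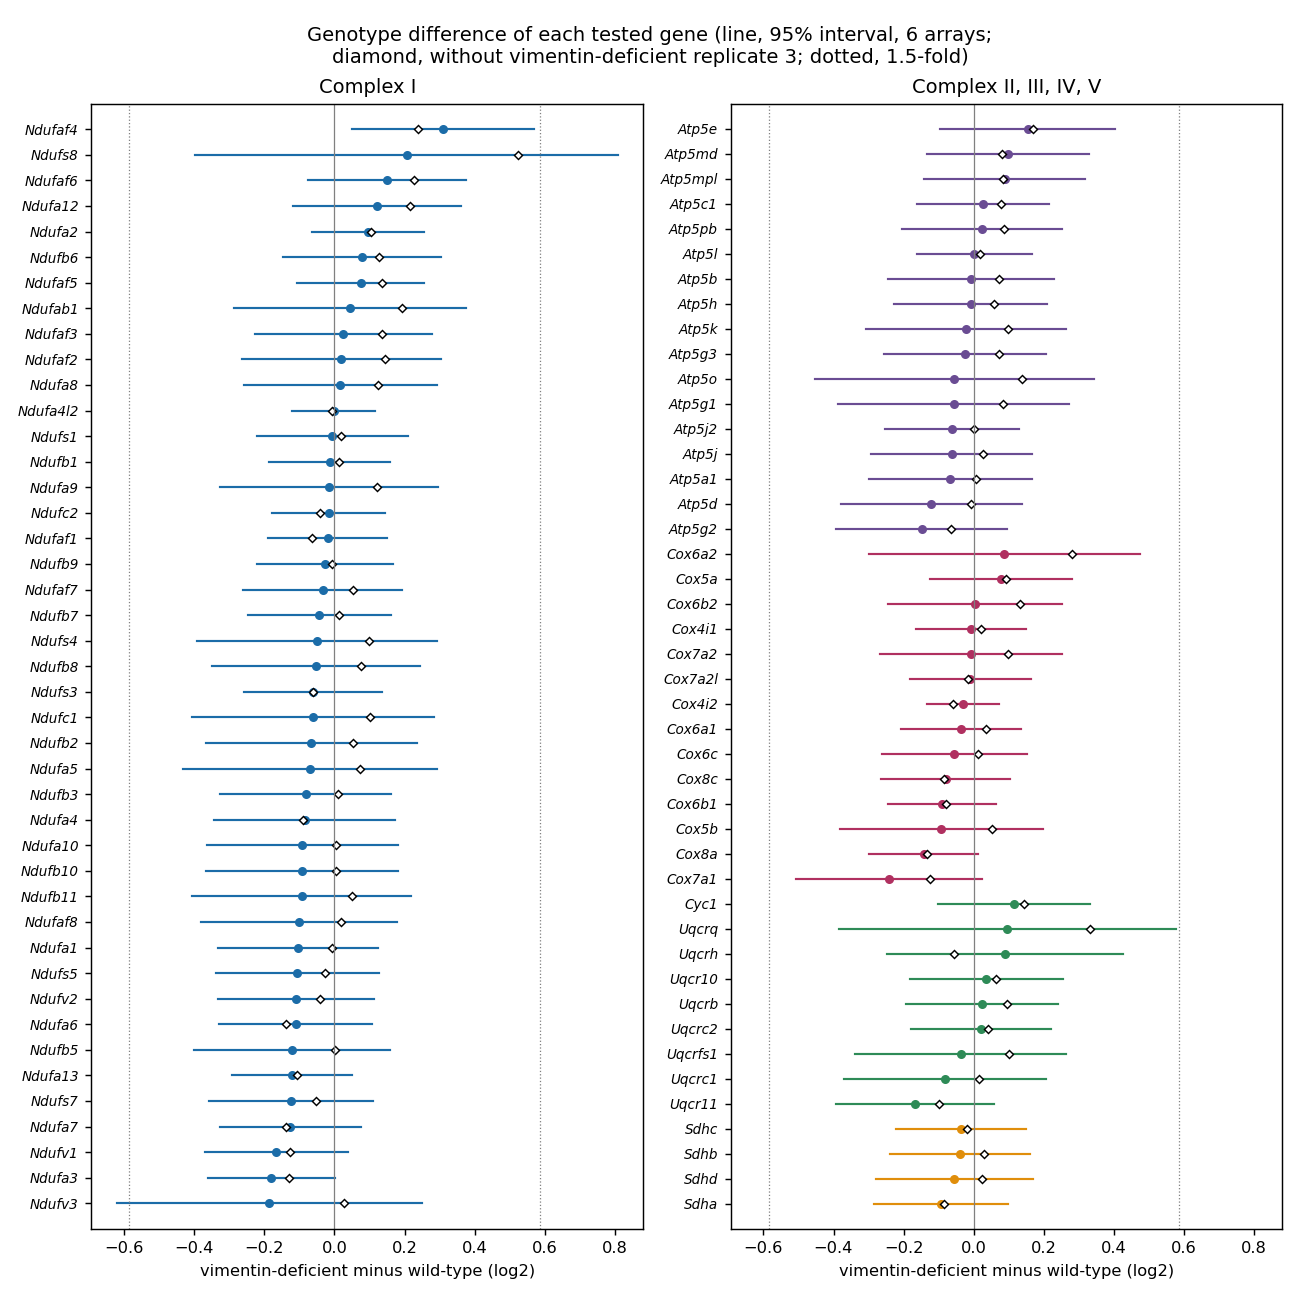
Log2 difference, vimentin-deficient minus wild-type, of the 87 tested oxidative phosphorylation genes by complex, as points with 95% limma intervals from all 6 arrays, as diamonds without vimentin-deficient replicate 3, and with dotted lines at 1.5-fold. With 6 arrays the values run from -0.24 to 0.31 around a median of -0.036, and without that array the median is 0.028.

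Complex I, the NADH dehydrogenase, gave a median log2 difference of -0.052 over its 43 tested genes, with 11 higher, 32 lower and 0 past the threshold. The 35 subunit genes alone had a median of -0.066, and the 8 assembly factor genes had 0.022, while without vimentin-deficient replicate 3 these medians were 0.009 and 0.136. Ndufa3, an accessory subunit of the membrane arm, read 11.87, 11.91 and 11.74 on vimentin-deficient and 11.99, 11.98 and 12.10 on wild-type replicates 1, 2 and 3. Every vimentin-deficient array lay below every wild-type array, by a log2 difference of -0.18 (SE 0.08, limma adjusted p = 0.624). Ndufa13, also known as GRIM-19, read 11.63, 11.64 and 11.59 against 11.66, 11.74 and 11.82. Its groups did not overlap, yet the nearest arrays of both genotypes were almost level, and the difference was -0.12 (limma adjusted p = 0.715). Ndufa2 went the other way, at 11.48, 11.47 and 11.45 against 11.33, 11.36 and 11.43. Here the vimentin-deficient arrays were all above the wild-type ones, by 0.10 (limma adjusted p = 0.759). Ndufa1, among the brightest probe sets of the complex, read 12.02, 11.99 and 11.71 against 11.98, 12.04 and 12.01. Only vimentin-deficient replicate 3 left the range of the others, and the difference was -0.10 with it and -0.01 without it.

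Ndufaf4, a factor needed to assemble complex I, had the largest genotype difference of the 87 genes. It read 8.52, 8.34 and 8.65 on vimentin-deficient and 8.35, 8.04 and 8.19 on wild-type replicates 1, 2 and 3. The groups overlapped, since wild-type replicate 1 lay just above vimentin-deficient replicate 2. The difference was 0.31 (SE 0.11, 95% interval 0.05 to 0.57), with an unadjusted limma p of 0.0261 and an adjusted p of 0.560, the lowest of the 87. Without vimentin-deficient replicate 3 it was 0.24 (limma adjusted p = 0.289). A second probe set of the gene read 7.72, 7.37 and 8.02 against 7.53, 7.31 and 7.25, again highest on vimentin-deficient replicate 3. Ndufaf1, another assembly factor, read 8.15, 8.05 and 8.23 against 8.12, 8.11 and 8.26, with overlapping groups, and its difference was -0.02 with 6 arrays and -0.06 without that array.

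Complex II, succinate dehydrogenase, is the member of the chain that also works in the TCA cycle. On the probe sets chosen, its 4 genes were all lower in vimentin-deficient macrophages, by a median of -0.047, with 0 past the threshold. Sdha, the flavoprotein that oxidises succinate, read 10.97, 10.91 and 10.91 against 10.99, 10.95 and 11.14, and the groups overlapped (log2 difference -0.09, limma adjusted p = 0.804). A second probe set of Sdha read 10.58, 10.66 and 10.83 against 10.69, 10.65 and 10.75, highest on vimentin-deficient replicate 3, with a difference of -0.01. With the mean of all its probe sets the difference of Sdha was 0.04. Sdhb, which carries the iron-sulphur clusters, read 11.49, 11.52 and 11.30 against 11.44, 11.46 and 11.53. Sdhd, a membrane anchor, read 10.94, 10.92 and 10.70 against 10.90, 10.85 and 10.98. For both, vimentin-deficient replicate 3 was the lowest of the 6 arrays and the other vimentin-deficient arrays lay among the wild-type ones. Without that array the median of the 4 genes was 0.002.

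Complex III, the cytochrome bc1 complex, had a median of 0.023 over its 9 genes, with 6 higher, 3 lower and 0 past the threshold. Uqcr11, its smallest subunit, read 10.45, 10.39 and 10.21 on vimentin-deficient and 10.46, 10.48 and 10.61 on wild-type arrays. The groups did not overlap, and the difference was -0.17 (SE 0.09, limma adjusted p = 0.704). Cyc1, the cytochrome c1 subunit that passes electrons to cytochrome c, read 10.84, 10.67 and 10.67 against 10.71, 10.52 and 10.61. Vimentin-deficient replicate 1 was highest and wild-type replicate 2 lowest, with a difference of 0.12 (limma adjusted p = 0.787). Uqcrb, the ubiquinone-binding protein, read 13.05, 13.23 and 12.92 against 13.11, 12.94 and 13.07, and its groups overlapped around a difference of 0.02. Without vimentin-deficient replicate 3 the difference of Uqcr11 was -0.10 (limma adjusted p = 0.691) and that of Uqcrb 0.10.

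Complex IV, cytochrome c oxidase, had a median of -0.033 over 14 tested genes, with 3 higher, 11 lower and 0 past the threshold. Cox8a, the isoform of subunit 8 made in most tissues, read 11.72, 11.74 and 11.70 against 11.88, 11.80 and 11.90. Its groups did not overlap, and the difference was -0.14 (SE 0.07, limma adjusted p = 0.646). Cox7a1, the isoform of heart and skeletal muscle, read 7.03, 7.02 and 6.67 against 7.13, 7.03 and 7.29, close to the filter level. Vimentin-deficient replicate 3 was lowest and wild-type replicate 3 highest, and the difference of -0.24 (SE 0.11, limma adjusted p = 0.646) was the lowest of the 87. Without vimentin-deficient replicate 3 it was -0.12 (limma adjusted p = 0.490), and the lowest of the 87 was then Ndufa7, at -0.14. Cox6a1 and Cox4i1, among the brightest of the complex, had differences of -0.04 and -0.01 with 6 arrays and 0.03 and 0.02 without that array.

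Several complex IV subunits exist as isoforms from separate genes, a widely made form and others linked to muscle, testis or low oxygen. Cox4i2, linked to low oxygen and lung, read 7.06, 7.08 and 7.16 against 7.17, 7.12 and 7.09 (difference -0.03), within the range of dim probe sets just above the filter. Cox6a2, the form of heart and skeletal muscle, had a difference of 0.09 beside -0.04 for Cox6a1, and the testis form Cox6b2 had 0.00 beside -0.09 for Cox6b1. Cox7a2, the widely made form of subunit 7a, read 12.18, 12.31 and 11.93 against 12.22, 12.05 and 12.17, with overlapping groups and a difference of -0.01. Cox7a2l had -0.01, Cox6c had -0.06 and Cox8c -0.08. Ndufa4, a complex IV subunit that its name places with complex I in the counts here, had -0.09 and its relative Ndufa4l2 had 0.00, and none of the isoform genes above the filter passed the threshold in limma. Without vimentin-deficient replicate 3 the differences were -0.06 for Cox4i2, 0.28 for Cox6a2, 0.13 for Cox6b2, 0.10 for Cox7a2, -0.02 for Cox7a2l, 0.01 for Cox6c and -0.01 for Ndufa4l2, so that those of Cox7a2 and Cox6c turned sign. The 4 genes under the filter were Cox8b, Cox7c, Ndufb4 and Cox7b2, with means of 6.50, 6.48, 6.14 and 5.92. Just inside it lay Cox7a1, Cox4i2 and Cox6b2, with means of 7.03, 7.11 and 7.36.

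Complex V, the ATP synthase, had a median of -0.022 over its 17 genes, with 6 higher, 11 lower and 0 past the threshold. Atp5b, the catalytic beta subunit, read 12.37, 12.18 and 12.04 against 12.27, 12.12 and 12.23, with overlapping groups and a difference of -0.01, which was 0.07 without vimentin-deficient replicate 3. Atp5e, the epsilon subunit of the central stalk, read 10.96, 11.18 and 11.02 against 11.00, 10.73 and 10.96. Wild-type replicate 2 was its lowest array, and the difference was 0.15 (SE 0.11, limma adjusted p = 0.755). Atp5g1, Atp5g2 and Atp5g3 are separate genes for the same mature protein, the ring subunit that turns as protons pass, and had differences of -0.06, -0.15 and -0.03. Leaving out vimentin-deficient replicate 3, they were 0.08, -0.07 and 0.07. Atp5g2 read 11.58, 11.66 and 11.37 against 11.57, 11.69 and 11.79, lowest on vimentin-deficient replicate 3 (limma adjusted p = 0.757).

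The clearest pattern in these genes was a single array. Vimentin-deficient replicate 3 was the lowest of the 6 arrays for 55 of the 87 genes, or 63.2%, while it was the lowest for 35.9% of all tested genes. It was the highest for 3, or 3.45%, against 22.0% of all tested genes. Against the mean of vimentin-deficient replicates 1 and 2, it lay lower for 73 of the 87 (83.9%, against 57.3% of all genes), by a median of -0.21 log2 units against -0.028. More than 0.25 log2 units below stood 35 of the 87 (40.2%, against 15.8%) and more than 0.25 above stood 1, Uqcrh (13.0% of all genes). Every complex took part, with medians of -0.234 for complex I, -0.128 for complex II, -0.209 for complex III, -0.143 for complex IV and -0.219 for complex V. No test was made of these counts, since 1 array has no replicate of its own. The shares were also not matched for signal: the median probe set mean was 10.98 for the 87 genes and 8.40 over all tested genes. That array is also the one with low proliferation genes and a macrophage marker mean of 12.36, the highest of the 6. Among these markers Fcgr1 read 11.70 there against 9.82 to 10.21, and Csf1r, Mertk, Lyz2 and Cd14 were also highest on it. Adgre1 was not, and Itgam and Cd68 were lowest there, at 9.60 against 10.30 to 10.62 and at 13.60 against 13.62 to 13.78. The mean of 5 osteoclast genes, 3 of them above the filter, was 7.31 on that array and 6.92 to 7.02 on the others. Ctsk among them read 9.01 against 7.37 to 7.72, and Acp5 7.94 against 7.54 to 7.77. Oscar, at 6.99, lay within the range of the other arrays, and Calcr and Ocstamp, both under the filter, were lowest on that array. The part of these in the lower values was not tested.

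**Figure D2:**
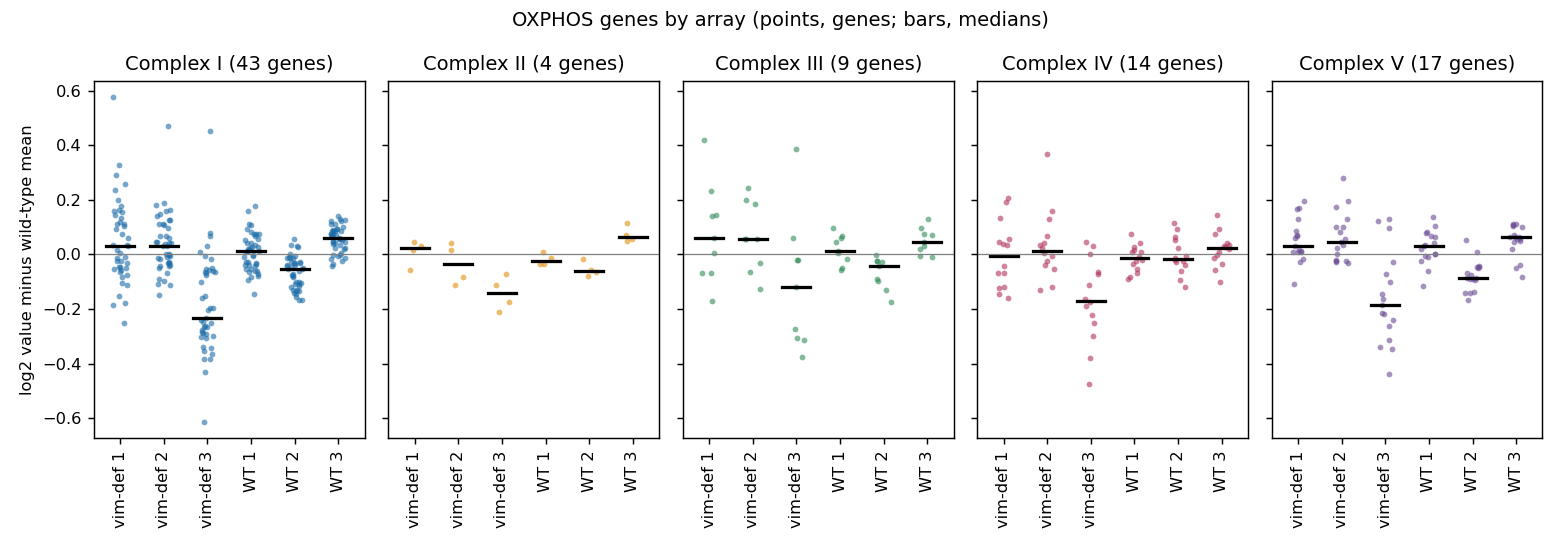
Deviation of each tested gene from its wild-type mean, in log2 units, on each of the 6 arrays, with 1 panel per complex, points for genes and bars for medians. The median over the 87 genes is -0.190 on vimentin-deficient replicate 3 and lies between -0.052 and 0.056 on the other 5 arrays.

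Seen array by array, the medians of the 87 genes against their wild-type means were 0.032, 0.036 and -0.190 on vimentin-deficient replicates 1, 2 and 3 and 0.007, -0.052 and 0.056 on wild-type replicates 1, 2 and 3. Over all tested genes no array left the range from -0.044 to 0.007. The wild-type arrays thus also differed among themselves in these genes: wild-type replicate 2 lay below the wild-type mean for 75 of the 87 and wild-type replicate 3 for 18. Over all 13445 tested genes these numbers were 6803 and 6116. Each wild-type array is part of that mean, so its deviations are not on the same scale as those of the vimentin-deficient arrays. The median SD between arrays was 0.139 for the vimentin-deficient group, 0.059 for its replicates 1 and 2 alone and 0.082 for the wild-type group. Over all tested genes these were 0.100, 0.060 and 0.068. The middle value of each rests on 2 arrays and the others on 3, so their sizes cannot be compared directly.

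The lower values on vimentin-deficient replicate 3 were shared by most further probe sets. There were 77 second probe sets above the filter, which belong to 48 of the genes. On replicate 3, 59 of them were lower than the mean of replicates 1 and 2, with a median of -0.127 over the 77. Of all tested genes, 57.3% were lower in this way on the chosen probe set, with a median of -0.028 over all. For 36 of the 48 genes all probe sets had the same sign of that difference. These include Ndufa7, Ndufaf4 and Uqcrh, which were higher on replicate 3 on every such probe set. Probe sets of 1 gene share the labelled RNA and are not replicates. The RNA quality controls, as 3-prime minus 5-prime probe sets in log2 units, were 0.230 for beta-actin on that array and between 0.18 and 0.23 on the 6 arrays. For the transferrin receptor they were 1.36 on that array, 1.39 and 1.44 on the other vimentin-deficient arrays and 1.49 to 1.56 on the wild-type arrays, and for pyruvate carboxylase 0.61 on that array, 0.80 and 0.86 on the other vimentin-deficient arrays and 0.66 to 0.75 on the wild-type arrays. Those of Gapdh lay between -0.017 and 0.013, and the part of these controls in the pattern was not tested.

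The size of the gap on that array differed widely between genes. More than 0.5 log2 units below the mean of vimentin-deficient replicates 1 and 2 were Ndufs8 at -0.95, Uqcrq at -0.71, Ndufv3 at -0.64, Cox6a2 at -0.58 and Atp5o at -0.58. Promoter windows are printed for 4 genes, to show members from both ends of this range: Ndufs8 and Ndufv3, the lowest with a window in the RefSeq table, and Uqcrh and Ndufaf4, the highest against the mean of replicates 1 and 2. Each runs from 170 bases before to 30 bases after the annotated RefSeq start on GRCm38.p6, in the direction of the gene. Capitals mark matches to the ETS core CGGAAG, bound by GABP (NRF-2), or to the NRF-1 core GCATGCG, both known in promoters of respiratory chain genes, on either strand. Matches on the opposite strand appear as CTTCCG and CGCATGC.
Ndufs8: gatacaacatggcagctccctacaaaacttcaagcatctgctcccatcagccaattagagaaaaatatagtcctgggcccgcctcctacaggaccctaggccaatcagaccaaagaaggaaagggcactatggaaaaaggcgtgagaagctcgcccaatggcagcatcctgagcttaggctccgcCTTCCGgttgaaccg
Ndufv3: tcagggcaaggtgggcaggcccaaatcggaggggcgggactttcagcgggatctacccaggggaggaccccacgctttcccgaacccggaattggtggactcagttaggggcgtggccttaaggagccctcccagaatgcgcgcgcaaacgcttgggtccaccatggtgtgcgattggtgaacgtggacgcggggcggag
Uqcrh: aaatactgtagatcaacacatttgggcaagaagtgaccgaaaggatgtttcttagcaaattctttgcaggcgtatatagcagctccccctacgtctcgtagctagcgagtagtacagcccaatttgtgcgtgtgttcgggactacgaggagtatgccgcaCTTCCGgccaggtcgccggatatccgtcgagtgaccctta
Ndufaf4: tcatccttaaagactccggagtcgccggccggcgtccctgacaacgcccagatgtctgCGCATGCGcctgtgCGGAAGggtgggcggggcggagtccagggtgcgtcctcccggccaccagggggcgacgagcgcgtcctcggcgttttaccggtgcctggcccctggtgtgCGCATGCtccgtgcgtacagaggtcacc
The Ndufs8 window lies at chr19:3912745-3912944 on the minus strand, the Ndufv3 window at chr17:31519945-31520144 on the plus strand, the Uqcrh window at chr4:116075041-116075240 on the minus strand and the Ndufaf4 window at chr4:24897913-24898112 on the plus strand. Ndufs8, which was low, and Uqcrh, which was high, both hold an ETS core on the strand opposite to the gene, beginning at base 16 after the start and at base 10 before it. Ndufaf4 holds an ETS core 98 bases before the start and 3 NRF-1 cores, of which a pair overlap as a palindrome, and Ndufv3 holds none of these letters. These matches describe the sequence and are not evidence of binding.

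Over the RefSeq table, which covers 250 bases before to 50 bases after each start, 74 of the 91 genes were matched, with 79 windows. The ETS core was present on either strand in 36 of them, or 45.6%, against 16.9% of all 32851 windows. The NRF-1 core was in 12, or 15.2%, against 3.58%, and the YY1 core ATGGCGG in 12, or 15.2%, against 4.05%. A window with any of the 3 motifs was found for 57.0%, against 21.7%. The 3 motifs are of different letters and may stand side by side, but matches to a motif that overlap on both strands were counted as 1 window.

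Ndufs8, a core subunit of complex I that carries iron-sulphur clusters on the way to ubiquinone, had the largest SD of the 87 genes among vimentin-deficient arrays, 0.55 (n = 3). It read 11.39, 11.28 and 10.38 on vimentin-deficient replicates 1, 2 and 3 and 10.82, 10.76 and 10.85 on wild-type replicates 1, 2 and 3. Vimentin-deficient replicates 1 and 2 thus lay above every wild-type array and replicate 3 below every one of them. With 6 arrays the difference was 0.21 (SE 0.25, limma adjusted p = 0.876). Without vimentin-deficient replicate 3 it was 0.52 (SE 0.08, 1.44-fold, limma adjusted p = 0.00558), and with array quality weights the limma adjusted p was 0.209. On all 6 probe sets of the gene, vimentin-deficient replicates 1 and 2 lay above every wild-type array, and on 5 of 6 replicate 3 lay below them, so the call rests on leaving out that array.

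Uqcrq, a small subunit of complex III, showed the same order of arrays at 11.27, 11.09 and 10.48 against 10.91, 10.72 and 10.92. Its difference was 0.10 (SE 0.20, limma adjusted p = 0.924) with 6 arrays and 0.33 (limma adjusted p = 0.112) without vimentin-deficient replicate 3. Its other probe sets did not share this order: vimentin-deficient replicates 1 and 2 lay above every wild-type array on 1 of 4, and replicate 3 lay below them on 3 of 4 and above them on 1. Cox6a2 read 8.90, 9.08 and 8.41 against 8.69, 8.73 and 8.71, again with vimentin-deficient replicates 1 and 2 above and replicate 3 below all wild-type arrays. It had 0.09 (limma adjusted p = 0.918) with 6 arrays and 0.28 (limma adjusted p = 0.111) without that array, and a second probe set kept this order at 7.67, 7.81 and 7.16 against 7.43, 7.46 and 7.35. Ndufv3, an accessory subunit of the part of complex I that oxidises NADH, read 11.75, 11.98 and 11.22 against 11.80, 11.80 and 11.91. Here only replicate 3 stood off, and the difference moved from -0.19 (limma adjusted p = 0.835) with 6 arrays to 0.03 without it. Atp5o, a stalk subunit that holds the catalytic head of the ATP synthase, read 11.30, 11.23 and 10.69 against 11.11, 11.05 and 11.24.

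Such a split, with vimentin-deficient replicates 1 and 2 above every wild-type array and replicate 3 below every one, was found for 10 of the 87 genes, or 11.5%, against 4.37% of all tested genes. They were Cox5b, Cox6a2, Cox6b2, Ndufa9, Ndufab1, Ndufaf2, Ndufaf3, Ndufs8, Uqcrfs1 and Uqcrq, and the pattern was chosen after the values were seen. Further probe sets did not always keep this split. For Ndufab1, replicates 1 and 2 lay above every wild-type array on 1 of 3 probe sets above the filter, and replicate 3 lay below them on 1 and above them on 1. For Cox5b, replicates 1 and 2 lay above on 2 of 5, and replicate 3 below on 4. On its brightest probe set Cox5b, a nuclear-encoded complex IV subunit, read 12.52, 12.50 and 12.08 against 12.47, 12.44 and 12.47. Uqcrfs1, the Rieske iron-sulphur protein of complex III, read 11.21, 11.12 and 10.75 against 11.05, 11.04 and 11.11. In these readings of Cox5b and Uqcrfs1, replicate 3 lay farther below the wild-type arrays than replicates 1 and 2 lay above them.

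Of the 87 genes, Uqcrh, Ndufaf4 and Ndufc2 were highest on vimentin-deficient replicate 3. Uqcrh is the hinge protein of complex III. It read 11.18, 11.41 and 11.73 against 11.30, 11.33 and 11.42, highest on vimentin-deficient replicate 3, with overlapping groups. The difference was 0.09 (SE 0.14, limma adjusted p = 0.903) with 6 arrays and -0.06 without that array, and a second probe set was also highest there, at 11.63. The plot of named genes by array sets it beside the genes that were low on that array.

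**Figure D3:**
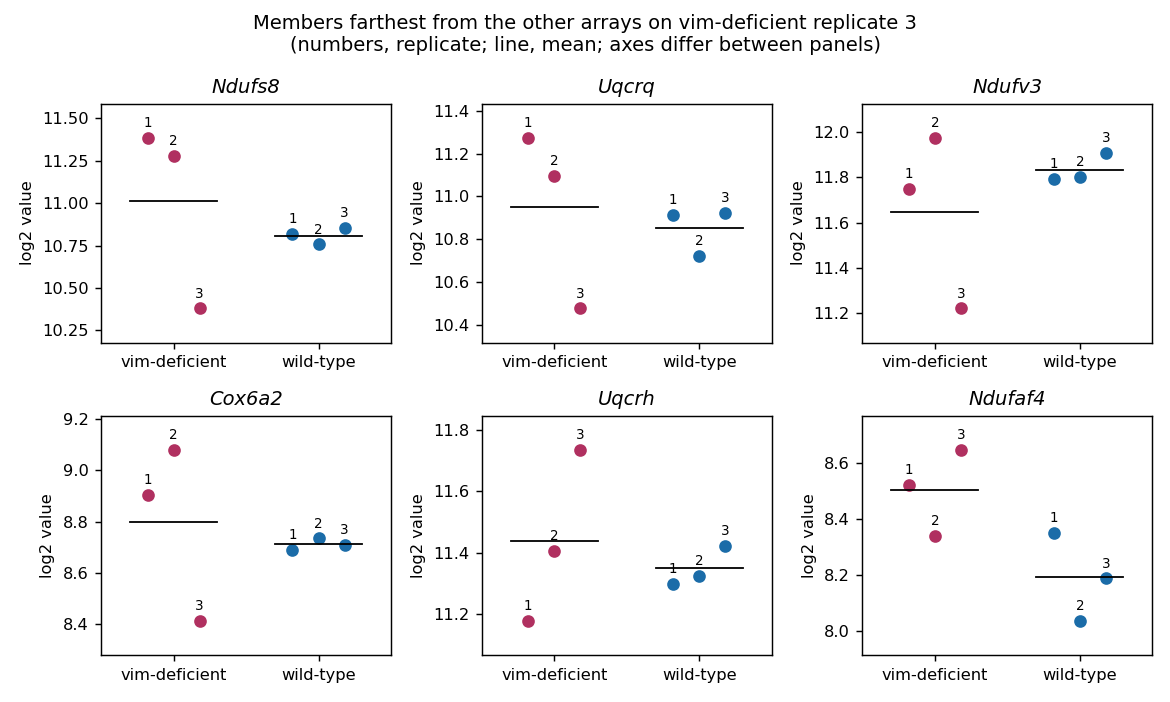
Log2 probe set values of named oxidative phosphorylation genes on the 3 vimentin-deficient and 3 wild-type arrays, 1 numbered point per array and a line at the mean of each genotype. Ndufs8 reads 11.39 and 11.28 on vimentin-deficient replicates 1 and 2 and 10.38 on replicate 3, while Uqcrh is highest on replicate 3, at 11.73.

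Leaving out vimentin-deficient replicate 3, which leaves 2 arrays against 3, turned the direction of the group. Higher in vimentin-deficient macrophages were then 60 of the 87 genes and lower 27, or 69.0% higher against 44.5% of all tested genes, where with 6 arrays 29.9% were higher against 39.6%. The median was 0.028, beside -0.013 over all tested genes. Past the threshold in limma was 1 of the 87, Ndufs8, which rose, where 1.31% of all tested genes passed upward, and 0 passed downward, where 1.03% did. At an unadjusted limma p under 0.05 were 8 of the 87, or 9.20%, beside 14.2% of all tested genes, and all 8 were higher, beside 7.11% of all tested genes that were higher at that level. By complex the medians became 0.018 for complex I, 0.002 for complex II, 0.064 for complex III, 0.016 for complex IV and 0.072 for complex V, where 15 of the 17 genes were higher.

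Related mitochondrial genes were read from lists of their own, and none of those tested passed the threshold with 6 arrays. The 38 tested assembly factors outside the Ndufaf names had a median of -0.024, with 16 higher, and gave 0.16 for Cox18 and -0.21 for Cmc1. Leaving out vimentin-deficient replicate 3 gave them a median of 0.024 and 24 higher. The 20 tested electron carriers and ATP exporters had a median of -0.068, with 7 higher, and of -0.005 without that array. Among them Cycs, cytochrome c, read 11.57, 11.30 and 11.10 against 11.28, 10.74 and 10.82, with overlapping groups and a difference of 0.38 (SE 0.18, limma adjusted p = 0.646), while Vdac1, a channel of the outer membrane, gave -0.19, or -0.09 without that array. The 17 tested genes of the TCA cycle and pyruvate dehydrogenase had a median of 0.014, with 9 higher, and gave -0.26 for Suclg2 and -0.24 for Idh2. When that array was left out these values were 0.01 and 0.02, and 16 of the 17 were higher, with a median of 0.036. Among 15 tested regulators of mitochondrial biogenesis the median was 0.004, with 8 higher, and gave 0.35 for Pprc1, or 0.22 without that array, and 0.12 for Nrf1. Without that array the median of the regulators was 0.033. The mitochondrially encoded subunits were read through 1 probe set, ND5, at 12.36, 12.34 and 12.57 against 12.54, 12.30 and 12.37. It was highest on vimentin-deficient replicate 3, with a difference of 0.02 (limma adjusted p = 0.971), or -0.05 without that array.

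The 76 genes for mitochondrial ribosome proteins, which translate the mitochondrially encoded subunits, had a median of -0.009 with 33 higher, and a median of 0.075 with 59 higher without vimentin-deficient replicate 3. Mrpl52 gave -0.19, or -0.13 without that array. Mrps6 read 10.52, 10.34 and 11.43 on vimentin-deficient against 9.69, 9.87 and 9.94 on wild-type arrays. All vimentin-deficient arrays lay above all wild-type ones, by 0.93 (SE 0.27, limma adjusted p = 0.470) with 6 arrays and by 0.59 (SE 0.10, limma adjusted p = 0.0103) without vimentin-deficient replicate 3. On that array the medians against the wild-type means were -0.177 for the mitochondrial ribosome, -0.182 for the TCA cycle and pyruvate dehydrogenase, -0.222 for the carriers and -0.092 for the other assembly factors, beside -0.190 for the oxidative phosphorylation genes. The biogenesis regulators, at 0.008, were not low on it. Against the mean of vimentin-deficient replicates 1 and 2, the median there was -0.209 for the oxidative phosphorylation genes. It was lower for the carriers (-0.283), the TCA cycle and pyruvate dehydrogenase (-0.251) and the mitochondrial ribosome (-0.237). It was -0.142 for the other assembly factors and -0.022 for the regulators. The low values on that array were thus not particular to the oxidative phosphorylation genes.

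**Figure D4:**
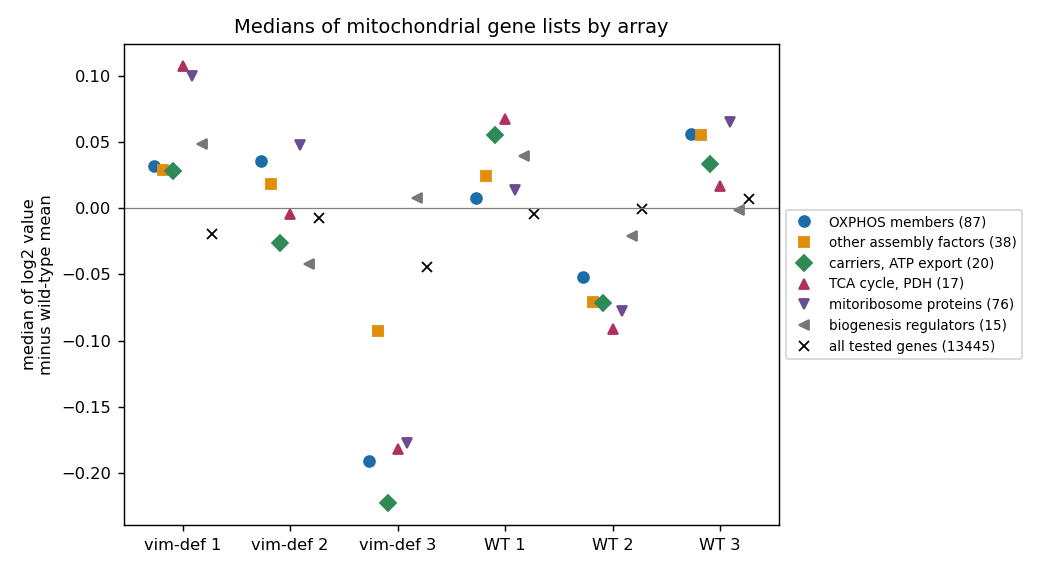
Median deviation from the wild-type mean, in log2 units, of oxidative phosphorylation genes, related mitochondrial lists and all tested genes on each of the 6 arrays. On vimentin-deficient replicate 3 the oxidative phosphorylation genes are at -0.190 and the mitochondrial ribosome at -0.177, while all tested genes are at -0.044 and the biogenesis regulators at 0.008.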

How the data were processed

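Total RNA of 6 macrophage cultures was labelled as biotin cRNA and hybridised to Affymetrix mouse whole-genome arrays, per the labels. The authors deposited log2 probe set values, which were used as deposited. How they were summarised and normalized was not given in the sources used here. Of 45101 probe sets, 64 were controls. The platform annotation gave 1 symbol for 34945, several for 932 and none for 9160. The probe set with the highest mean stood for a gene, and genes with a mean at or above the 40th percentile (6.93) were tested. Genotypes were compared with limma 3.58.1 in R 4.3.3 (lmFit, eBayes with trend) over all 13445 genes, with Benjamini-Hochberg adjustment at 0.05. The procedure was first tested on simulated data, which had for each gene the same noise level on all 6 arrays. These data held no array that stands apart, as vimentin-deficient replicate 3 does, so the test does not cover that case. Levels of different probe sets were not compared as amounts of RNA. Genes were named by a rule: per complex the 2 brightest and the 2 with the smallest p, any gene past the threshold in the fits with 6 arrays, with array quality weights or without vimentin-deficient replicate 3, the 3 highest and 3 lowest on that array, isoform groups, and from each related list the 2 genes with the smallest p. Ndufa9, Ndufab1, Ndufaf2, Ndufaf3, Cox5b, Uqcrfs1, Atp5o, Ndufa13, Ndufa2, Ndufc2, Ndufa7, Cox7c, Ndufb4 and ND5 were added after values were seen. The genes and lists were chosen with earlier results of these data known. Alternatives were quantile normalization, median centring, other filters, other probe set rules, no trend, array weights, a replicate block and leaving out each array. Markers of neutrophils, B cells, T cells, erythroid cells, stroma, dendritic cells and osteoclasts were read on every array, and 0 of the tested genes of each list passed the threshold with 6 arrays. No current symbol of a mitochondrially encoded subunit matched the annotation, which has ND5. Promoter sequences are from RefSeq (GRCm38.p6).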

Additional observations from a re-analysis of the deposited data

How the results depend on the processing

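No oxidative phosphorylation gene passed the limma threshold under quantile normalization, median centring, either other filter, either other probe set rule, no trend, array weights or the replicate block (0 to 6 of them at an unadjusted p under 0.05, the 6 with array weights, or 6.90%, beside 13.3% of all genes). Over the fits that leave out 1 array the number higher was 0 to 1, the 1 being Ndufs8 without vimentin-deficient replicate 3, and the number lower was 0 in each. The median of the genes was -0.036 with 6 arrays, -0.029 after quantile normalization, -0.002 with array weights and between -0.068 and 0.028 without 1 array. It was above 0 only without vimentin-deficient replicate 3. Of 33 named genes, the sign of the difference turned for 11 without that array, for 6 with array weights and for 4 with the mean of all probe sets, and none of these was past the threshold with 6 arrays. Over all genes, those higher numbered 0 with 6 arrays (405 at an unadjusted p under 0.05), 52 with array weights and 0 to 176 without 1 array. Those lower numbered 3, 41 with array weights and 0 to 139 without 1 array, each highest number being without vimentin-deficient replicate 3.

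With the replicate number as a block, 0 genes were lower (620 at an unadjusted p under 0.05) and 0 of the 87 differed (1 at an unadjusted p under 0.05). Deviations of same-numbered arrays correlated at 0.497, -0.194 and 0.055, and not every array correlated best with its own number, so the numbers are not taken as pairs.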

Other observations

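The symbol rule leaves out 10 probe sets that the annotation assigns to several genes, among them those shared by Ndufb4 and its near-identical copies, which no single gene can be given. This bears on Ndufb4, whose own probe set lay under the filter at a mean of 6.14. Cox7c, under the filter as well, read 6.44, 6.46 and 6.84 on vimentin-deficient and 6.40, 6.34 and 6.40 on wild-type arrays. Its highest array was vimentin-deficient replicate 3, on which most of the tested genes were lowest. Ndufab1 was lowest on that array on its tested probe set, yet a probe set of it under the filter read 7.05 there against 6.28 to 6.38. A probe set of Sdha under the filter read 7.31 against 6.62 to 6.70, and another 6.35, within the range of the other arrays. The Cox7c reading is therefore not taken as a rise of its transcript.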
